A study of Arabidopsis thaliana with 8 samples.

Results

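The 12S cruciferin genes of Arabidopsis thaliana were followed in endosperm mRNA: *CRA1* (AT5G44120), *CRU2* (AT1G03880), *CRU3* (AT4G28520) and AT1G03890, the gene next to *CRU2*. They were chosen by locus identifier, and these 4 genes are 4 of the 37329 genes in each of the 3 deposited tables. Each table sets 1 mutant genotype beside WT: mat *nrpd1+/−* (L*er* *nrpd1−/−* mother, Col-0 father), pat *nrpd1+/−* (L*er* mother, Col-0 *nrpd1−/−* father) or *nrpd1−/−* (both parents mutant), with L*er* × Col-0 as WT. *NRPD1* codes for the catalytic subunit of RNA Pol IV, and the comparison asked how endosperm mRNA differs when the mother, the father or both parents lack it. Endosperm was dissected by hand at 7 DAP (days after pollination). The series lists 3 mat *nrpd1+/−*, 3 *nrpd1−/−* and 2 WT libraries, 8 in all, and the pat *nrpd1+/−* libraries were published earlier and are known here only through their pooled values.

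Several features limit the genotypes as models. The mutation was the *nrpd1a-4* insertion allele, made in Col-0 and moved into L*er* by repeated introgression, so that the L*er* mutant mothers still carry Col-0 sequence in 12 regions covering 20617793 bp. None of the cruciferin genes overlaps these regions, and the nearest lies 3160723 bp from the closest of them (*CRU3*). In mat *nrpd1+/−* and *nrpd1−/−* the mother plant, and so the tissue around the endosperm, was homozygous mutant as well, which the endosperm values alone cannot separate from the genotype of the endosperm. Endosperm from many seeds was pooled for each replicate.

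Cruciferins are the 12S globulins of crucifer seeds and, with the 2S albumins, make up most of the stored protein. Each is made as a precursor on the endoplasmic reticulum, folds with a disulfide bond between its acidic and basic parts, is sorted to the protein storage vacuole and is cut there by vacuolar processing enzymes, after which subunits assemble into hexamers. Their genes are classic targets of the maturation network, in which the B3 proteins ABI3, FUS3 and LEC2 bind the RY element and act with bZIP factors and with LEC1. These genes are best known for their activity in the maturing embryo. *CRA1*, *CRU2* and *CRU3* encode the main cruciferin subunits A, B and C, and AT1G03890 encodes a related cupin-fold protein.

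All of these genes have 4 exons and encode proteins of 472 (*CRA1*), 455 (*CRU2*), 524 (*CRU3*) and 451 (AT1G03890) residues in the RefSeq annotation of TAIR10.1. *CRA1* lies on chromosome 5 from 17756238 to 17758336 on the minus strand. *CRU3* lies on chromosome 4 from 14087556 to 14089796 on the plus strand. *CRU2* (chromosome 1, 985751 to 988146) and AT1G03890 (chromosome 1, 989198 to 991020) lie on the plus strand with 1051 bp between them. Coding sequences were 60.1% to 76.2% identical between pairs, with *CRA1* and *CRU2* the closest pair, and the longest run of bases shared by any pair of transcripts was 26. The annotation also states that L*er* has another 12S globulin gene, *CRA2*, in tandem with *CRA1*. That copy has no row of its own, so reads from it could have been counted on *CRA1*, and every mother used here was L*er*.

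The 250 bases before the gene start are shown for *CRA1*, *CRU3* and AT1G03890 because the members moved together within a table and the RY element is the known binding site of the B3 activators. They are from RefSeq TAIR10.1 (Col-0), 5′ to 3′ on the gene's own strand, at chr5:17758337-17758586 for *CRA1*, chr4:14087306-14087555 for *CRU3* and chr1:988948-989197 for AT1G03890, with matches to the RY core in capitals.
CRA1: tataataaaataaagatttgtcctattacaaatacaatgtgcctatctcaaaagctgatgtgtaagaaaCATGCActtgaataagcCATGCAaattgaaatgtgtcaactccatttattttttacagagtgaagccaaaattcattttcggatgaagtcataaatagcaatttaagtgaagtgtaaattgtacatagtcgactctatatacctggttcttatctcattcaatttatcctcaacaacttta
CRU3: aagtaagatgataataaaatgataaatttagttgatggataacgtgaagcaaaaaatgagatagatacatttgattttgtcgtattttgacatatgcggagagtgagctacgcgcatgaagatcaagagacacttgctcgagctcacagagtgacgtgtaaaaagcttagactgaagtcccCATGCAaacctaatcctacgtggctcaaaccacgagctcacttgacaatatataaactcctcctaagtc
AT1G03890: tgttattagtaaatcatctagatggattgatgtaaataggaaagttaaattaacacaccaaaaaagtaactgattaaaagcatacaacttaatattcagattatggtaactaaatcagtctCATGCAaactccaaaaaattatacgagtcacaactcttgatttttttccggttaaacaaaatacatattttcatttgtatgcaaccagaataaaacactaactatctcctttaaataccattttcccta
The RY core CATGCA, searched on both strands, was found at 2 places before *CRA1*, 181 and 164 bases upstream counted from the first base of the match, at 1 place before *CRU3* (69 bases) and at 1 place before AT1G03890 (129 bases). Of 27443 promoters of the same length before protein-coding genes, 8.43% held the core at least once and 1.66% at 2 or more places. The doubled form CATGCATG, which contains the core, was before none of these 3 genes and in 0.776% of promoters. The bZIP core ACGT was found 3 times before *CRU3* and not before *CRA1* or AT1G03890, against 44.1% of promoters with at least 1 match. The G-box CACGTG, which contains ACGT, was before none of them and in 6.49% of promoters. TATAAA was found before *CRU3* (19 bases) and in 47.3% of promoters. A match is a run of letters and not a measured binding site, and L*er* promoters may differ from these Col-0 sequences.

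Abundance is given in FPKM (fragments counted per length of transcript and per size of library), which the authors made with Cuffdiff. Each table holds 1 FPKM value per genotype, pooled over that genotype's libraries. The spread between replicates and the reads behind each value are therefore unknown, no test was run, and every difference is a description of pooled values. log2 ratios are log2 of (mutant FPKM + 1) over (WT FPKM + 1), which understates changes of genes under a few FPKM. The targeted gene *NRPD1* itself lies in an introgressed region. It was at 2.28 FPKM in WT and 2.08 FPKM in mat *nrpd1+/−*, at 2.01 and 0.845 FPKM in WT and pat *nrpd1+/−*, and at 4.34 and 2.08 FPKM in WT and *nrpd1−/−*, so transcript over the gene was counted in every genotype. Of 12 endosperm markers, 7 lie in introgressed regions. The levels of *SUC5*, *ZOU* and *ALE1* lay between 31.6 FPKM (*ALE1* in *nrpd1−/−*) and 228 FPKM (*SUC5* in mat *nrpd1+/−*). Their log2 ratios in mat *nrpd1+/−*, pat *nrpd1+/−* and *nrpd1−/−* were 0.16, −0.18 and 0.71 for *SUC5* and 0.26, −0.16 and −0.63 for *ZOU*. For *ALE1* they were −0.58, −0.58 and −1.61, the last from 98.1 FPKM in WT to 31.6 FPKM. *YUC10*, an auxin synthesis gene, was at 6.17 and 66.2 FPKM in WT and mat *nrpd1+/−*. It was at 5.42 and 3.29 FPKM in WT and pat *nrpd1+/−*, and at 12.9 and 79.3 FPKM in WT and *nrpd1−/−*. *PHE1* was at 1.51 and 0.108 FPKM in WT and mat *nrpd1+/−*, and *FIS2* at 2.35 and 0.224 FPKM in WT and *nrpd1−/−*. *MINI3* was listed at 0 in every column and *IKU2*, *AGL62*, *MEA* and *AGL36* stayed under 1 FPKM.

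In mat *nrpd1+/−* endosperm, all 4 cruciferin genes were higher than in WT, by 8.52-fold to 527-fold in FPKM. *CRA1* (cruciferin A) was at 251 FPKM in WT and 2137 FPKM in mat *nrpd1+/−*, 8.52-fold higher (log2 ratio 3.09). *CRU2* (cruciferin B) was at 2.40 FPKM in WT and 1162 FPKM in mat *nrpd1+/−*, 483-fold higher (log2 ratio 8.42). *CRU3* (cruciferin C) was at 4.82 FPKM in WT and 1396 FPKM in mat *nrpd1+/−*, 289-fold higher (log2 ratio 7.91). The gene with the highest WT level thus had the smallest ratio. AT1G03890 was at 0.133 FPKM in WT and 70.2 FPKM in mat *nrpd1+/−* (log2 ratio 5.97), and its 527-fold difference rests on a WT level far under 1 FPKM. In bulk endosperm, a change in how many cells express these genes and a change in mRNA per cell cannot be told apart.

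Among 14767 genes outside the introgressed regions that had Cuffdiff status OK and at least 1 FPKM in either genotype, 10.7% were at least 2-fold higher in mat *nrpd1+/−* than in WT and 14.3% were at least 2-fold lower. *CRA1*, *CRU2* and *CRU3* passed this filter through their WT values, and all 3 were in the higher group. Their median log2 ratio was 7.91, beside −0.08 over the whole set. AT1G03890 passed only through its mutant value, so it had to be higher and is not counted. *CRU2* had the 3rd highest ratio of the set, *CRU3* the 4th, AT1G03890 the 12th and *CRA1* the 179th. Ranked by abundance among 37032 nuclear genes, *CRA1* was 845th in WT and 22nd in mat *nrpd1+/−*. *CRU3* was 12409th in WT and 38th in mat *nrpd1+/−*, and *CRU2* was 14917th and 47th. AT1G03890 was 22019th in WT and 2103rd in mat *nrpd1+/−*.

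**Figure D1:**
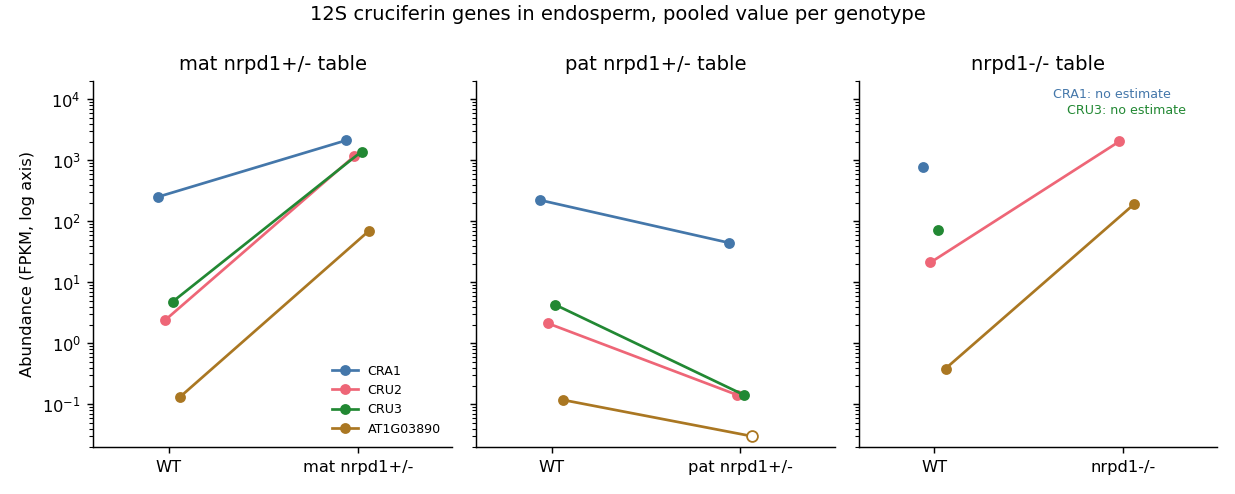
FPKM (log axis) of the 4 cruciferin genes in WT and in the mutant genotype of each table, with 1 pooled point per genotype and lines joining the values of a gene. All 4 were higher in mat *nrpd1+/−*, all 3 with a mutant value above 0 were lower in pat *nrpd1+/−*, and the open circle marks AT1G03890, listed at 0 in pat *nrpd1+/−* and drawn near the foot of the axis; "no estimate" marks *CRA1* and *CRU3* in *nrpd1−/−*.

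In pat *nrpd1+/−* endosperm, the cruciferin genes were lower than in WT. *CRA1* was at 222 FPKM in WT and 44.5 FPKM in pat *nrpd1+/−*, 5.0-fold lower (log2 ratio −2.30). *CRU3* was at 4.28 FPKM in WT and 0.142 FPKM in pat *nrpd1+/−* (log2 ratio −2.21), and *CRU2* was at 2.13 FPKM in WT and 0.143 FPKM in pat *nrpd1+/−* (log2 ratio −1.45). Without the added 1 FPKM the decreases were 30.2-fold for *CRU3* and 14.8-fold for *CRU2*, but both mutant values are so low that a few reads could decide them. AT1G03890 was at 0.118 FPKM in WT and listed at 0 in pat *nrpd1+/−*, with the status that Cuffdiff gives to loci with too few reads for its test, so no ratio is given. Of 14099 genes in the set for this table, 3.31% were at least 2-fold lower and 2.64% at least 2-fold higher in pat *nrpd1+/−*. *CRA1*, *CRU2* and *CRU3* were in the set and at least 2-fold lower, but *CRU2* and *CRU3* passed the filter only through their WT values and had to be lower, so only *CRA1* is read against these shares. *CRA1* had the 33rd lowest ratio of the set, *CRU3* the 39th and *CRU2* the 130th. The median log2 ratio over the set was 0.04. The ratios in mat and pat *nrpd1+/−* have opposite signs for these 3 genes, but the WT column of each table is a multiple of that of the other, so they are not independent.

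In *nrpd1−/−* endosperm, a ratio could be taken for *CRU2* and AT1G03890, and both were higher than in WT. *CRU2* was at 21.1 FPKM in WT and 2042.5 FPKM in *nrpd1−/−*, 96.6-fold higher (log2 ratio 6.53). AT1G03890 was at 0.385 FPKM in WT and 193 FPKM in *nrpd1−/−*, 501-fold higher (log2 ratio 7.13). *CRA1* and *CRU3* were at 781 and 71.4 FPKM in WT and are listed at 0 in *nrpd1−/−*. That 0 carries the Cuffdiff status HIDATA, which marks a locus with more fragments than the program was set to process, so it is a missing estimate and neither a low level nor a loss of the mRNA. The status marks 17 genes of this table, and 15 of them are listed at 0 in the mutant. 13 of those 15 had at least 1 FPKM in WT. Of 14168 genes in the set for this table, 8.8% were at least 2-fold higher and 7.46% at least 2-fold lower in *nrpd1−/−*. *CRU2* passed the filter through its WT value and had the 13th highest ratio. AT1G03890 had the 9th highest, but it passed only through its mutant value and had to be higher. *CRU2* ranked 5450th by abundance in WT and 29th in *nrpd1−/−*, and AT1G03890 ranked 18818th and 611th.

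**Figure D2:**
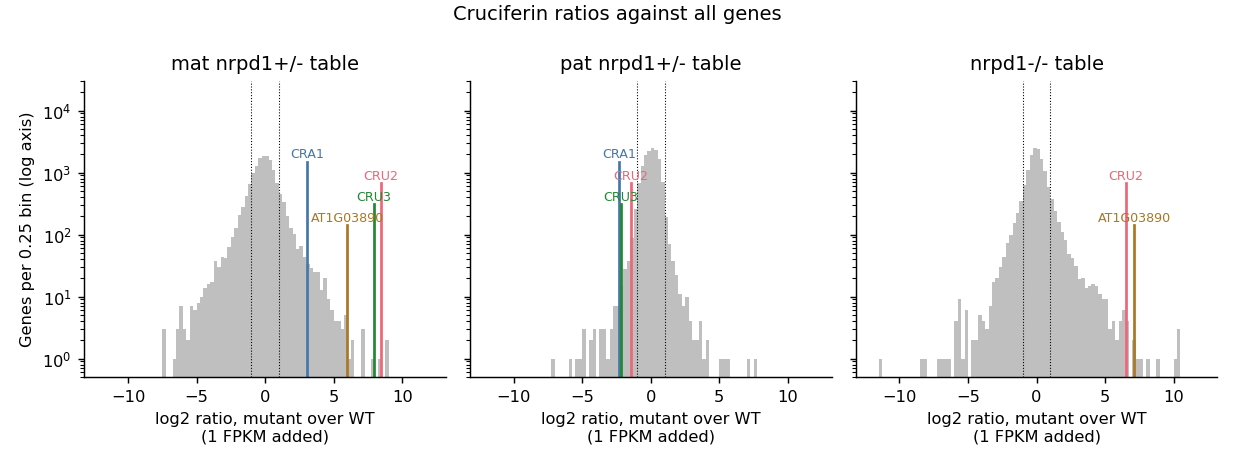
Number of genes (log axis) by log2 ratio of mutant over WT with 1 FPKM added, for the genes of each table outside introgressed regions with status OK and at least 1 FPKM in either genotype. Coloured lines mark the cruciferin genes that have a ratio, at 3.09 to 8.42 in mat *nrpd1+/−*, −2.30 to −1.45 in pat *nrpd1+/−* and 6.53 to 7.13 in *nrpd1−/−*; dotted lines mark 2-fold.

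The make-up of the cruciferin mRNA also differed between genotypes. FPKM is per length, so the genes can be compared within a column. In the WT column of the mat *nrpd1+/−* table, *CRA1* made up 97.2% of the summed FPKM of the 4 genes, *CRU3* 1.87%, *CRU2* 0.931% and AT1G03890 0.0516%. In mat *nrpd1+/−*, the shares were 44.9% for *CRA1*, 29.3% for *CRU3*, 24.4% for *CRU2* and 1.47% for AT1G03890. *CRA1* exceeded *CRU3* by 52.0-fold in that WT column and by 1.53-fold in mat *nrpd1+/−*. *CRU3* was 2.01-fold above *CRU2* in that WT column, 1.20-fold above it in mat *nrpd1+/−* and 3.38-fold above it in WT of the *nrpd1−/−* table. *CRU2* exceeded its neighbour AT1G03890 by 18.0-fold in this WT column and by 16.5-fold in mat *nrpd1+/−*, and in the *nrpd1−/−* table by 54.9-fold in WT and by 10.6-fold in the mutant. In pat *nrpd1+/−*, *CRA1* made up 99.4% of the cruciferin FPKM. The 4 genes together held 0.0215% of all FPKM in WT and 0.528% in mat *nrpd1+/−*. In the pat *nrpd1+/−* table they held 0.0216% in WT and 0.00361% in the mutant. No share was formed for *nrpd1−/−*, where *CRU2* and AT1G03890 alone summed to 2236 FPKM.

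**Figure D3:**
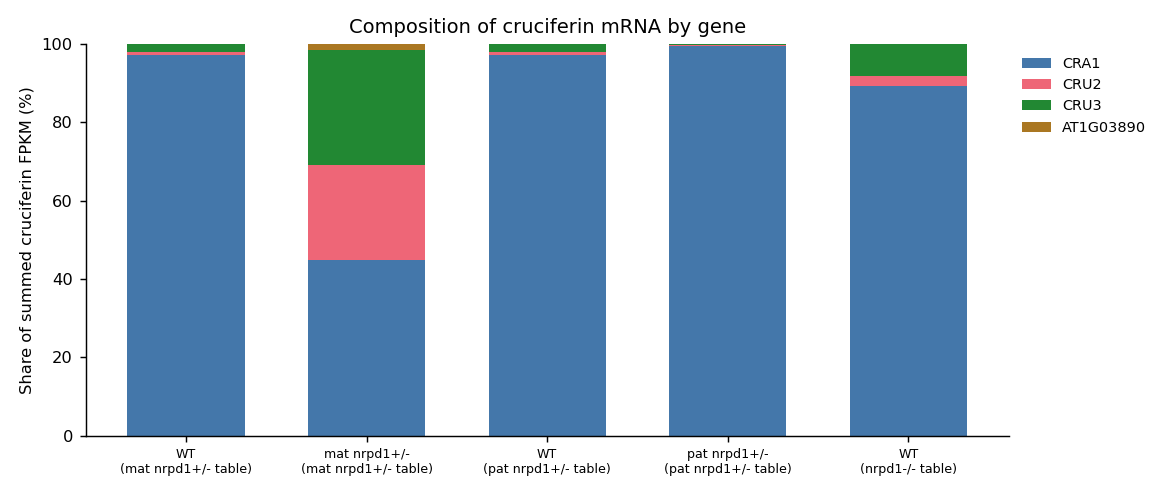
Share (%) of each gene in the summed FPKM of the 4 cruciferin genes, for the 5 columns in which all 4 have a usable value. *CRA1* made up 97.2% in WT of the mat *nrpd1+/−* table, 44.9% in mat *nrpd1+/−*, 99.4% in pat *nrpd1+/−* and 89.4% in WT of the *nrpd1−/−* table.

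WT itself was not at the same cruciferin level in every table. The WT columns of the mat and pat *nrpd1+/−* tables differed by a constant factor, with an SD of the log2 ratio of 0.0054 over 15835 genes. The WT column of the *nrpd1−/−* table had an SD of 1.18 against that of the mat *nrpd1+/−* table, so it rests on other data. Since the tables were normalized separately, WT values were set side by side after scaling on the median ratio of these genes. On that scale *CRA1* was at 251 FPKM in WT of the mat *nrpd1+/−* table and 858 FPKM in WT of the *nrpd1−/−* table, which is 3.42-fold higher. *CRU2* was at 2.40 and 23.2 FPKM, a 9.67-fold difference, and *CRU3* was at 4.82 and 78.4 FPKM, a 16.3-fold difference. AT1G03890 was under 1 FPKM in both. Of 14566 genes, 11.9% were at least 2-fold higher in WT of the *nrpd1−/−* table, and *CRU3* had the 105th highest ratio, *CRU2* the 163rd and *CRA1* the 413th. *CRA1* made up 89.4% of the cruciferin FPKM in this WT column and *CRU3* 8.17%, and the 4 genes held 0.0928% of all FPKM. Which WT libraries entered each table is not given in the sources used here.

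The size of the difference from WT therefore depended on which WT column it was set against. With WT of the *nrpd1−/−* table in its place, mat *nrpd1+/−* was higher by 2.49-fold for *CRA1*, 17.8-fold for *CRU3*, 50.0-fold for *CRU2* and 166-fold for AT1G03890. With WT of the mat *nrpd1+/−* table, *nrpd1−/−* was higher by 934-fold for *CRU2* and by 1593-fold for AT1G03890. The direction was the same with either WT for every gene that has a ratio in these tables.

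Other seed storage protein genes were set beside the cruciferins: the 2S albumin genes *SESA1* to *SESA5*, the vicilin-like gene *PAP85* and 3 further cupin genes. In mat *nrpd1+/−*, 6 of these 9 genes were in the set and 5 were at least 2-fold higher, beside 10.7% of the whole set. The median log2 ratio of the 6 was 3.99. *PAP85* had the highest ratio, from 2.08 FPKM in WT to 465 FPKM (log2 ratio 7.24), and AT4G36700 the lowest, from 1224 to 1069 FPKM (log2 ratio −0.19). *SESA2*, *SESA3* and *SESA4* had status HIDATA in this table and no mutant value. In pat *nrpd1+/−*, all 9 genes were in the set, with a median of −1.18. None was 2-fold higher and 6 were at least 2-fold lower, beside 3.31% of the whole set. Of those 6, *SESA5* and *PAP85* were under 1 FPKM in the mutant and were in the set only through WT. *SESA2* had the lowest ratio, from 258 FPKM in WT to 39.7 FPKM (log2 ratio −2.67), and *SESA1* the highest, from 229 to 200 FPKM (log2 ratio −0.19). In *nrpd1−/−*, 7 of the 9 were in the set, with a median of 3.01. Of the 7, 6 were at least 2-fold higher, beside 8.8% of the whole set. *PAP85* again had the highest ratio, from 31.6 FPKM in WT to 540 FPKM (log2 ratio 4.05), and AT4G36700 the lowest at −0.25. The medians over the cruciferin genes with a ratio were 6.94 (4 genes), −2.21 (3 genes) and 6.83 (2 genes) in mat *nrpd1+/−*, pat *nrpd1+/−* and *nrpd1−/−*, with the limits on low genes given above. AT1G07750, a further cupin gene of the same fold, had log2 ratios of −0.65, −0.40 and −0.71 in mat *nrpd1+/−*, pat *nrpd1+/−* and *nrpd1−/−*. The other listed cupin gene, AT2G28680, stayed under 1 FPKM.

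The known activators of maturation genes did not move together. Of 12 genes, 9 were outside introgressed regions and in the set. In mat *nrpd1+/−*, 3 were at least 2-fold higher and 3 at least 2-fold lower, beside 10.7% and 14.3% of the whole set. Their median log2 ratio was −0.18, and ratios called highest or lowest below are among the 9. *ABI3*, the B3 factor that acts on cruciferin genes in embryos, had the highest ratio, from 20.0 FPKM in WT to 58.2 FPKM (log2 ratio 1.49). *LEC1*, a nuclear factor Y subunit upstream of the B3 genes, had the lowest, from 509 to 95.2 FPKM (log2 ratio −2.41). In pat *nrpd1+/−*, none of the 9 reached 2-fold, and the ratios ran from −0.53 (*ABI3*) to 0.63 (*LEC1*). In *nrpd1−/−*, none was at least 2-fold higher and 2 were at least 2-fold lower, beside 8.8% and 7.46% of the whole set. *LEC2* had the lowest log2 ratio (−1.56) and the bZIP gene *DPBF2* the highest (0.71). *LEC1* was from 207 FPKM in WT to 79.8 FPKM in *nrpd1−/−*, and *ABI3* from 38.2 to 58.5 FPKM. *EEL*, inside an introgressed region and left out of the counts, was at 106 and 301 FPKM in WT and mat *nrpd1+/−*. It was at 93.2 and 79.1 FPKM in WT and pat *nrpd1+/−*, and at 227 and 448 FPKM in WT and *nrpd1−/−*. Its ratio was above that of *ABI3* in mat *nrpd1+/−* and above that of *DPBF2* in *nrpd1−/−*. Also left out were *ABI5*, between 1.91 and 2.99 FPKM in every column, and *ABI4*, under 1 FPKM.

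Among 6 repressors of the maturation program, none reached 2-fold in mat *nrpd1+/−* (4 in the set, log2 ratios from 0.47 for *VAL2* to 0.79 for *VAL1*) or in *nrpd1−/−* (5 in the set, −0.57 for *PKL* to −0.26 for *VAL2*). In pat *nrpd1+/−*, 1 of 4 was at least 2-fold lower, beside 3.31% of the whole set. This was *VAL1*, a B3-domain repressor of embryonic genes, from 31.2 FPKM in WT to 11.4 FPKM (log2 ratio −1.37), and *MYB118*, which restrains maturation genes in endosperm, was nearest to WT at −0.53. The median log2 ratio of the repressors in the set was 0.69 in mat *nrpd1+/−*, −0.86 in pat *nrpd1+/−* and −0.40 in *nrpd1−/−*. Whether repressor levels bear on the cruciferin differences was not tested.

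Genes listed as processing proteases, or for folding and vacuolar sorting, were read next. Of 5 processing proteases, 4 were in the set. *ALPHA-VPE*, a vacuolar processing enzyme gene, had the highest ratio in mat *nrpd1+/−*, from 170 FPKM in WT to 955 FPKM (log2 ratio 2.49), and in *nrpd1−/−*, from 566 to 1202 FPKM (log2 ratio 1.09). *DELTA-VPE* had the lowest in both, at −0.40 and −1.05, and in pat *nrpd1+/−* the ratios ran from −0.45 (*GAMMA-VPE*) to 0.31 (*DELTA-VPE*). *BETA-VPE*, the main seed form, lies in an introgressed region and was left out of the counts. It was chosen after its values were seen, which were 17.9 and 241 FPKM in WT and mat *nrpd1+/−*, 15.8 and 8.77 FPKM in WT and pat *nrpd1+/−*, and 111 and 535 FPKM in WT and *nrpd1−/−*. Of 8 genes for folding in the endoplasmic reticulum, 4 were in the set and none reached 2-fold in any table. Their ratios ran from −0.98 (*BIP2*, a chaperone) to −0.26 (*PDIL1-1*, a disulfide isomerase) in mat *nrpd1+/−*, from −0.40 (*PDIL1-1*) to −0.03 (*BIP2*) in pat *nrpd1+/−* and from −0.89 (*BIP1*) to 0.49 (*PDIL1-1*) in *nrpd1−/−*. Folding genes inside introgressed regions, left out of the counts, did reach 2-fold. *PDIL1-2* was at −1.95 and *CRT1a* at −1.32 in mat *nrpd1+/−*, and *ERO1* was at 1.10 in *nrpd1−/−*. Of 10 vacuolar sorting genes, 9 were in the set and none reached 2-fold in any table, with ratios from −0.62 (*RMR1*) to 0.89 (*GRV2*) in mat *nrpd1+/−*, −0.72 (*VSR3*) to 0.64 (*MAG1*) in pat *nrpd1+/−* and −0.69 (*GRV2*) to 0.70 (*VTI12*) in *nrpd1−/−*.

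**Figure D4:**
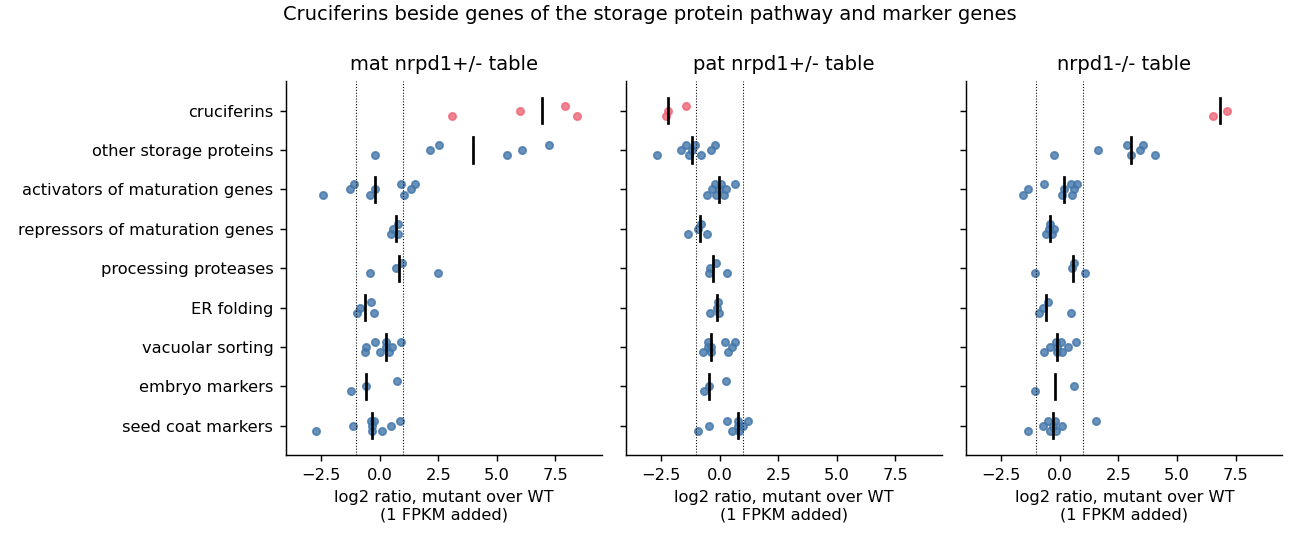
log2 ratios of mutant over WT (1 FPKM added) for each listed gene in the set of each table, with 1 point per gene and black bars at list medians; dotted lines mark 2-fold. Cruciferin medians were 6.94 in mat *nrpd1+/−*, −2.21 in pat *nrpd1+/−* and 6.83 in *nrpd1−/−* (4, 3 and 2 genes), and those of other storage proteins 3.99, −1.18 and 3.01. AT1G03890 in mat *nrpd1+/−* and *nrpd1−/−*, and *CRU2* and *CRU3* in pat *nrpd1+/−*, were in the set only through their higher value, which fixed their direction.

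Markers of the tissues next to endosperm were read beside these values, since cruciferins are abundant in embryos. Of 14 embryo markers, 10 were under 1 FPKM in WT and 12 in mat *nrpd1+/−*, 10 and 11 in the pat *nrpd1+/−* table, and 12 and 11 in the *nrpd1−/−* table. Their summed FPKM was 42.2 in WT and 27.0 in mat *nrpd1+/−*, 37.3 in WT and 40.4 in pat *nrpd1+/−*, and 37.6 in WT and 29.5 in *nrpd1−/−*. *CUC1* and *SCR* made up most of it. *CUC1* was at 31.4 FPKM in WT and 12.8 FPKM in mat *nrpd1+/−*, while *SCR* was at 6.30 and 11.3 FPKM. In WT and pat *nrpd1+/−*, *CUC1* was at 27.8 and 33.5 FPKM and *SCR* at 5.56 and 3.14 FPKM. In WT and *nrpd1−/−*, *CUC1* was at 27.0 and 12.3 FPKM and *SCR* at 9.14 and 14.6 FPKM. *TMO7* was at 0.333 and 0.932 FPKM in WT and mat *nrpd1+/−*, and at 0.213 and 1.0 FPKM in WT and *nrpd1−/−*. The embryo markers *WUS*, *WOX5*, *PLT1*, *PLT2*, *BBM* and *DRN*, named after their values were seen, were under 0.35 FPKM in every column. The highest of them was *WUS* in *nrpd1−/−*, at 0.346 FPKM. *STM* was at 1.76 FPKM in WT of the mat *nrpd1+/−* table, and at 1.56 and 2.38 FPKM in WT and pat *nrpd1+/−*. *WOX2* was at 1.23 and 1.08 FPKM in WT of the mat and pat *nrpd1+/−* tables. *STM* and *WOX2* were under 1 FPKM in the other columns. *CUC2* was listed at 0 in every WT column. Of 14 seed coat markers, the summed FPKM was 266 in WT and 240.0 in mat *nrpd1+/−*, 234 in WT and 305 in pat *nrpd1+/−*, and 262 in WT and 225 in *nrpd1−/−*. None was listed at 0, and 2 to 4 were under 1 FPKM in each column. Outside introgressed regions, *LDOX* had the lowest seed coat ratio in mat *nrpd1+/−* (log2 ratio −2.74) and in *nrpd1−/−* (−1.35), and *TT10* in pat *nrpd1+/−* (−0.92). *TT8* was highest in mat *nrpd1+/−* (0.87) and *MYB5* in pat *nrpd1+/−* (1.19) and *nrpd1−/−* (1.55). Inside them, *TTG2* was at 2.26 in mat *nrpd1+/−* and 2.05 in *nrpd1−/−*, and *BAN* at 1.69 in *nrpd1−/−*. The part of embryo or seed coat RNA in the cruciferin differences was not tested.

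The genes whose 3 ratios were most like the cruciferins were found among 9081 genes outside introgressed regions with status OK in every table and at least 10 FPKM in some column. Likeness was the Euclidean distance, over the 3 tables, to the median log2 ratio of *CRA1*, *CRU2* and *CRU3*, which was 7.91 in mat *nrpd1+/−*, −2.21 in pat *nrpd1+/−* and 6.53 in *nrpd1−/−*, where only *CRU2* has a value. The nearest was AT1G03103, annotated as a member of the lipid-transfer and 2S albumin superfamily, at a distance of 2.55. Its log2 ratios were 8.99, −0.73 and 4.75 in mat *nrpd1+/−*, pat *nrpd1+/−* and *nrpd1−/−*. *ATS1* (AT4G26740), a caleosin of seed lipid bodies, followed at 2.73 with ratios of 6.26, −0.94 and 4.75. *PAP85* was at 2.81 with 7.24, −1.07 and 4.05. AT1G05510 was at 3.10 with 6.30, 0.12 and 5.25. The dehydrin gene *LEA* (AT2G21490) was at 3.32 with 5.80, −0.59 and 4.54. All 5 were thus more than 2 log2 units away, but *CRA1* itself was at 3.09 in mat *nrpd1+/−*, beside the centre of 7.91. The status rule also kept *SESA2*, *SESA3* and *SESA4*, which had status HIDATA, out of the search. A gene at or under about 1 FPKM in WT cannot have a low ratio in pat *nrpd1+/−* once 1 FPKM is added, which limits the likeness of such genes there.

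Genes around the cruciferin genes were examined as a check on position, chosen only by order along the chromosome: 4 protein-coding genes on each side of *CRA1*, of *CRU3* and of the *CRU2* and AT1G03890 pair, 24 in all. In mat *nrpd1+/−*, 15 of the 24 were in the set, with a median log2 ratio of 0.26. Of these 15, 1 was at least 2-fold higher, beside 10.7% of the whole set. In pat *nrpd1+/−*, 13 were in the set, none reached 2-fold and the ratios ran from −0.64 to 0.67. In *nrpd1−/−*, 15 were in the set, with a median of 0.13, 1 at least 2-fold higher and 1 at least 2-fold lower. Over the whole set these shares were 8.8% and 7.46%. The higher gene in both tables was *NAC074*, which starts 693 bp past the end of *CRU3*, from 0.0783 FPKM in WT to 2.50 FPKM in mat *nrpd1+/−* (log2 ratio 1.70) and from 0.179 to 5.35 FPKM in *nrpd1−/−* (log2 ratio 2.43). It too passed the filter only through the mutant values. The lower gene was *PHB2*, from 67.1 to 25.8 FPKM in *nrpd1−/−* (log2 ratio −1.34). Next to *CRU2* and AT1G03890, *ABCI18* was at 58.4 FPKM in WT and 62.9 FPKM in mat *nrpd1+/−* (log2 ratio 0.11), and *ABCI21*, 470 bp from *CRA1*, was at 5.15 and 6.62 FPKM (log2 ratio 0.31). These 4 genes were chosen for naming after their values were seen. The count on *NAC074* could hold reads that run past *CRU3*, which was not tested.

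**Figure D5:**
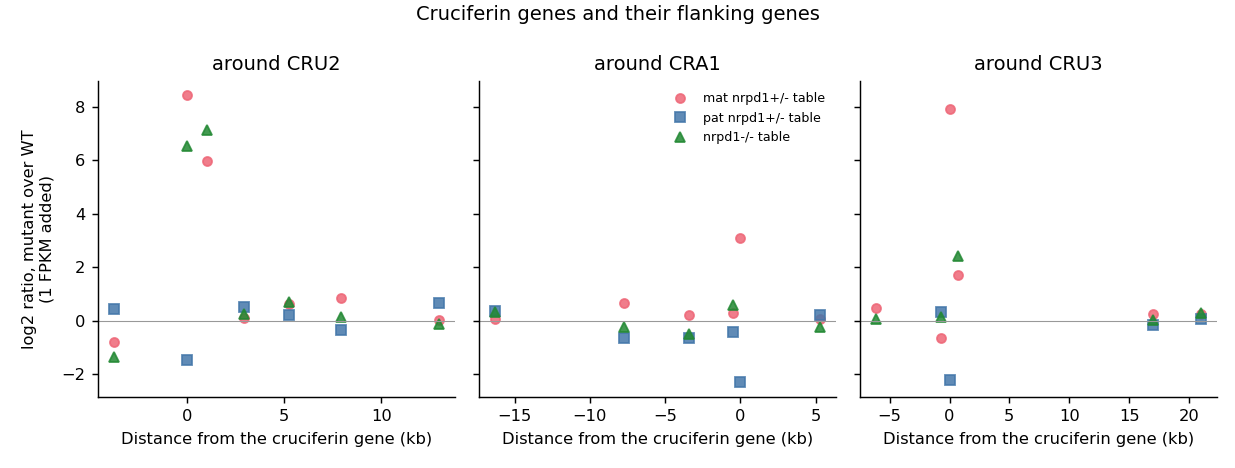
log2 ratio of mutant over WT (1 FPKM added) against distance in kb from the cruciferin gene (0), for the cruciferin genes and flanking genes that were in the set of each table; AT1G03890 is the second gene at the *CRU2* position. Flanking genes lay between −1.34 (*PHB2*) and 0.85, except *NAC074* at 1.70 in mat *nrpd1+/−* and 2.43 in *nrpd1−/−*.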

How the data were processed

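Endosperm mRNA was sequenced from 8 libraries listed in the series (7 DAP). The authors trimmed reads with Trim Galore, aligned them to TAIR10 with TopHat and made FPKM values with Cuffdiff (version 2.2.1 in the submitters' processing notes), pooling the libraries of a genotype and scaling each comparison on its own. The deposited tables also hold the authors' fold changes, test statistics, p-values and q-values, which were not used; only the FPKM columns and the status column were. A deposited list of 12 introgressed regions, in bp, was used as given. Strand use in counting is not given in the sources used here.

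The members, gene lists and settings were chosen with earlier results of these data known. Ratios were log2 of (mutant FPKM + 1) over (WT FPKM + 1) within a table. The set beside which members are read held genes with status OK, at least 1 FPKM in either genotype and no overlap with an introgressed region. 2-fold means a log2 ratio of at least 1 or at most −1. Genes with status HIDATA were left out of ranks and totals, other than cruciferin values that could be used. These are loci with very many fragments, so abundance ranks can lie too near the top and shares of all FPKM can be too large. The named genes are the cruciferins, *NRPD1*, the highest and lowest ratio of each list in each table, and the 5 genes most like the cruciferins; markers and other genes named beyond these were chosen after their values were seen. Of 32215 nuclear genes matched by locus tag to RefSeq TAIR10.1, all lay on the same chromosome and 71.4% had the same start and end, as did all 4 cruciferin genes. The sequence before *CRU2* is not reported here. Alternatives changed the pseudocount, filter, scaling, WT column, status and introgressed regions. Code was tested on simulated data. Python 3.11.15, numpy 2.4.6, pandas 2.3.3, Biopython 1.88 and matplotlib 3.10.9 were used.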

Additional observations from a re-analysis of the deposited data

How the results depend on the processing

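No paired analysis was possible because the tables hold 1 pooled value per genotype, and for the same reason no replicate could be left out. Of 51 alternative values of the 9 cruciferin ratios, 39 moved by less than 1.5-fold, 12 moved by more and 0 changed sign. Changing the added FPKM cannot change a sign, and the shifts from scaling were smaller than every ratio. Only the change of WT column could therefore have changed a sign. That change was made for mat *nrpd1+/−* and *nrpd1−/−* only, so no alternative could change the sign of a pat *nrpd1+/−* ratio. With 0.1 FPKM added in place of 1, the log2 ratio of AT1G03890 was 8.24 in mat *nrpd1+/−* and 8.64 in *nrpd1−/−*, and in pat *nrpd1+/−* that of *CRU2* was −3.20 and that of *CRU3* −4.18. With nothing added, these were 9.04, 8.97, −3.89 and −4.92, since the added value bears on low genes. Against WT of the *nrpd1−/−* table, the mat *nrpd1+/−* ratios were 1.32 for *CRA1*, 5.58 for *CRU2* and 4.14 for *CRU3*, and against WT of the mat *nrpd1+/−* table *CRU2* in *nrpd1−/−* was at 9.37. A common nuclear total shifted all log2 ratios relative to the deposited ones (log2 ratio of totals −0.56, 0.26 and 0.15 in mat, pat and *nrpd1−/−*). WT of the *nrpd1−/−* table was also set against the WT column beside mat *nrpd1+/−* on that scale, here with nothing added to FPKM. The log2 ratio of these WT columns was 2.41 for *CRA1* in place of 1.77 and 3.91 for *CRU2* in place of 3.27. It was 4.66 for *CRU3* in place of 4.02 and 2.30 for AT1G03890 in place of 1.67. AT1G03890 was under 1 FPKM in both WT columns. This scaling of WT, and shares over nuclear genes alone, were chosen after seeing the data.

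Of 36 alternative counts of genes at least 2-fold apart, 29 stayed within 1.5 times the main count. Dropping the filter on low values could not change a count. With 1 FPKM added, a gene 2-fold apart has at least 1 FPKM in its higher genotype. At a minimum of 10 FPKM, with fewer genes in the set, 915 in place of 1580 were higher in mat *nrpd1+/−*, 715 in place of 1247 higher and 593 in place of 1057 lower in *nrpd1−/−*, and 211 in place of 372 higher and 216 in place of 466 lower in pat *nrpd1+/−*. With 0.1 FPKM added, 686 were higher and 1078 lower in pat *nrpd1+/−*. Depth per gene is unknown, which limits values under 1 FPKM most.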
